A study of Mus musculus with 107 samples.

Results

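Treatment-naïve tumors of 6 mouse models on a BALB/c background were compared with those of 4 models on a C57BL/6 or C57L background (called C57 here), gene by gene, to ask which transcripts separate the backgrounds whatever the tumor type. The comparison holds 29 of the 107 tumors of the series, 18 BALB/c and 11 C57. The BALB/c models were BNL 1ME A.7R.1 (BNL, hepatocellular carcinoma), RAG and Renca (renal cell carcinoma), 4T1 and EMT6 (breast cancer) and CT26.WT (CT26, colorectal cancer), all grown in BALB/cAnNCrlCrlj mice. The C57 models were MC38 (colorectal cancer) and B16-F10 (B16F10, melanoma) in C57BL/6NCrl mice, LL/2 (LL2, lung cancer) in C57BL/6JCrl mice, and Hepa 1-6 (Hepa, hepatocellular carcinoma) in C57L/J mice. Cells of each line were placed under the skin of the flank of 7-week-old mice, stated as male for BNL and Hepa and female for the others, and no tumor in the comparison received a drug. There were 3 tumors per model, except for MC38 with 2. As a check, 30 untreated (NT) tumors of the same 10 models, collected on day 8, were compared in the same way. MBT2 and KLN205, whose hosts are of other strains, were left out of the comparison.

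Each model is 1 cell line in 1 host strain, and the line and the host share the background, so a transcript of the cancer cells and one of the host cells in the tumor cannot be told apart here. The tumors of 1 model went against the stated sex of their hosts. In the treatment-naïve BNL tumors Xist, which only cells that silence an X chromosome express, was at 35.3 to 55 TPM and the Y-linked Eif2s3y was listed at 0, while in the day 8 BNL tumors Xist was at 0 to 0.29 TPM and Eif2s3y at 4.91 to 7.2 TPM. Without BNL, 88 of the 102 genes called below were called again. The tumor types are not the same in both groups. Only the liver pair (BNL and Hepa) and the colon pair (CT26 and MC38) match in tumor type. The values are TPM, transcript abundances scaled for transcript length and to the same total in every tumor, so the depth per tumor is unknown. Each model counted once, as the mean of log2(TPM + 1) over its tumors, and a difference is always the BALB/c mean minus the C57 mean on that scale. A gene is said to be called when its p-value from limma, adjusted over all tested genes by the Benjamini-Hochberg method, was under 0.05. Log2 differences of low genes are understated on this scale.

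Inbred strains differ in single genes and in whole gene clusters. The best known case is the major histocompatibility complex (MHC, or H2 in mice), whose class I molecules present peptides to CD8+ T cells and natural killer (NK) cells and whose class II molecules present peptides to CD4+ T cells. BALB/c mice carry the H2 d haplotype and C57BL/6 mice the H2 b haplotype. Another source of strain differences is processed pseudogenes, which are copies of a spliced mRNA inserted back into the genome. Because such a copy can be nearly identical to its parent gene, reads of one can be assigned to the other, and the reference genome used to map the reads is that of C57BL/6J.

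Of 17535 tested genes, 102 were called, 0.582% of those tested. There were 73 higher in the BALB/c models (0.416%) and 29 higher in the C57 models (0.165%). For all 102 called genes the model means of the backgrounds did not overlap, and for 90 of them the single tumors did not overlap either. The calls were made on the same model means, so this is a description only. Over all tested genes, model means did not overlap for 3.17%. Single tumors did not overlap for 0.416% with BALB/c higher and for 0.399% with C57 higher. Over all tested genes the median difference was -0.09, and 1832 genes (10.4%) had an unadjusted p under 0.05. Protein-coding genes took 38.9% to 54.7% of the TPM of a BALB/c tumor (median 46%) and 51.7% to 58.7% of that of a C57 tumor (median 56.4%). With values rescaled over protein-coding genes, the median of all genes moved to 0.14 and the calls were 101 higher in BALB/c and 23 higher in C57, so that the BALB/c share of the calls went from 71.6% to 81.5%. With single tumors and model as a random block the majority turned, with 139 higher in BALB/c and 166 higher in C57 (45.6% higher in BALB/c). By the two-group test of the study 66 of the 102 genes were called again.

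The called genes were mostly of types that are rare among the tested genes. Pseudogenes made up 54 of the 102 calls (52.9%) against 7.31% of the tested genes, and 45 of the 54 were higher in the BALB/c models. Protein-coding genes made up 31 calls (30.4%) against 75.7% of the tested genes, 21 higher in BALB/c (0.158% of the tested protein-coding genes) and 10 higher in C57 (0.0754%), together 0.234%. The other 17 were non-coding RNAs, 7 higher in BALB/c and 10 higher in C57. A near-identical copy, defined as another annotated transcript of at least 95% identity elsewhere in the genome, was found for 74 of the 102 called genes (72.5%) and for 10.8% of the tested genes. Among genes with such a copy, 3.91% were called, and among genes without one, 0.179% (28 genes, of which 10 are protein-coding). The 2 kinds of gene are described in turn.

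**Figure D1:**
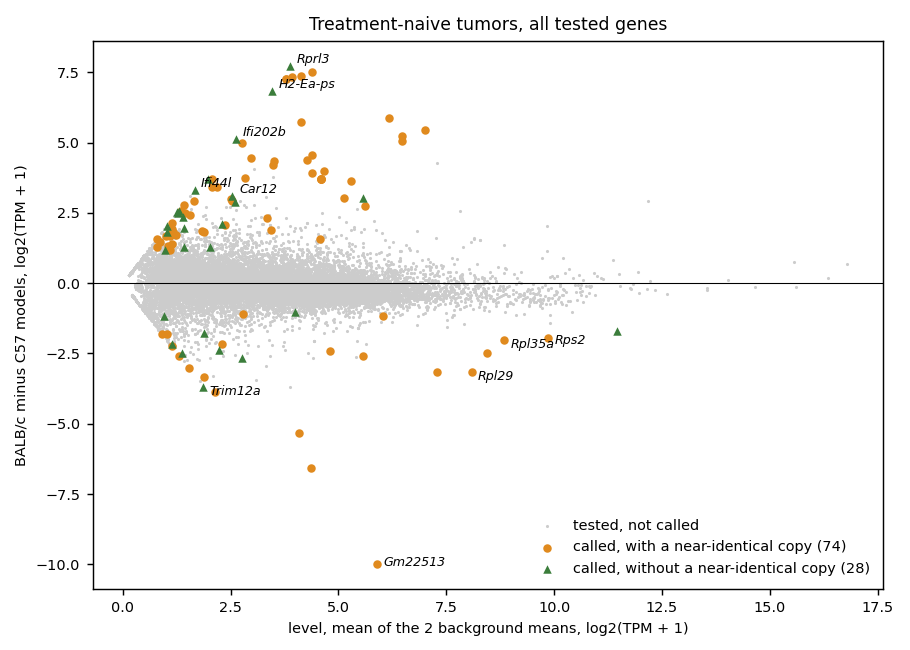
Difference between the backgrounds (y axis, BALB/c minus C57, log2(TPM + 1)) against the level (x axis, mean of the background means, log2(TPM + 1)) for the 17535 genes tested in treatment-naïve tumors. Grey points were not called, orange circles are the 74 called genes with a near-identical copy and green triangles the 28 without one; most of the called points lie above 0.

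Genes of the MHC region are taken first, together with the 2 of them that have a near-identical copy. Of 160 tested genes between 33 and 37 Mb of chromosome 17 (GRCm38), 6 were called (3.75%, against 0.582% over all tested genes), and all 6 were higher in the BALB/c models. The limits of this region were set with the values known, so the share is a description only. The largest difference was that of H2-Ea-ps (chr17:34341959-34344645, minus strand), the gene of the alpha chain of the class II molecule I-E, which the annotation lists as a polymorphic pseudogene. The H2 b haplotype is known to make no I-E alpha chain. H2-Ea-ps ranged from 31.3 to 434 TPM in the BALB/c tumors (median 87.7 TPM), and in the C57 tumors it was listed at 0 except for 1 Hepa tumor at 0.29 TPM. It was lowest in EMT6 (mean 49 TPM) and BNL (mean 51.8 TPM) and highest in RAG, at 359 to 434 TPM. The difference was 6.85 (SE 0.58, adjusted p = 9.01e-05, limma, n = 6 and 4 models).

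The partner chain and the other classical class II genes did not share this pattern. H2-Eb1, which encodes the beta chain of I-E, averaged 148 TPM in BALB/c and 271 TPM in C57 models (difference -0.43, adjusted p = 0.88). H2-Aa and H2-Ab1, the chains of I-A, had differences of -0.46 and -0.42 (limma adjusted p = 0.865 and 0.87). H2-DMb2, which encodes a chain of the peptide-loading molecule DM, averaged 24.8 TPM against 6.83 TPM (difference 2.37, limma adjusted p = 0.271), and its near copy H2-DMb1 13.3 TPM against 37.7 TPM (difference -1.31, limma adjusted p = 0.524). In all, 1 of 10 tested genes of the class II list was called, beside 0.582% over all tested genes. The median difference of the list was -0.18, and 0.455 in the day 8 tumors, so no direction is read from it.

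The 5 other called genes of the region were Gm11127, Gm10499, Gm8909, H2-Q2 and Msh5. Gm11127 (chr17:36055816-36058371, minus strand), a predicted class I gene, ranged from 11.1 to 66.3 TPM in BALB/c tumors (median 50.4 TPM) and from 0 to 0.82 TPM in C57 tumors. Its difference was 4.97 (SE 0.392, limma adjusted p = 5.45e-05), and with its 97.9% identical copy Gm7030 added it was still 4.34 (exact permutation p = 0.00476, the smallest that 10 models allow). Gm10499, a transcribed unprocessed pseudogene, ranged from 4.12 to 25.9 TPM against 0 to 0.25 TPM (difference 3.71, limma adjusted p = 0.000264). Gm10499 was chosen after its values were seen. Gm8909, another predicted class I gene whose closest relative H2-D1 is 90.8% identical, ranged from 1.06 to 10.6 TPM against 0 to 0.09 TPM (difference 2.59, limma adjusted p = 0.00716). H2-Q2, a class Ib gene of the Qa cluster, ranged from 1.23 to 12.6 TPM against 0 to 0.14 TPM (difference 2.77, limma adjusted p = 0.00127). For each of these 4 genes, every BALB/c tumor was above every C57 tumor.

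The neighbor H2-Q1, which is 96.2% identical to H2-Q2, showed 1 model apart from its background. It was at 2.57 to 18.3 TPM in the BALB/c tumors, at 0 to 0.09 TPM in MC38, B16F10 and LL2, and at 18.4 to 22.4 TPM in the 3 Hepa tumors. Its difference of 2.31 was not called (limma adjusted p = 0.345), and without Hepa it was 3.40 (adjusted p = 0.00193). The sum of H2-Q2 and H2-Q1 was 17.7 TPM ± 7.57 in BALB/c and 5.06 TPM ± 10 (SD) in C57 models (difference 2.91, exact permutation p = 0.019). In the limma fit with copies summed it was not called (adjusted p = 0.304), so H2-Q2 taken alone is uncertain. Hepa is the only C57 model here whose host is C57L/J. Of the classical class I genes, H2-K1 averaged 227 TPM in BALB/c and 534 TPM in C57 models (difference -0.56, adjusted p = 0.788) and H2-D1 567 TPM and 768 TPM (difference -0.12, adjusted p = 0.962). None of the 11 tested genes of the class I list and 1 of the 17 of the class Ib list was called, beside the same 0.582%.

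Msh5 (chr17:35028605-35046745, minus strand) and Sycp1 (chr3:102818499-102936100, minus strand) are genes of meiosis, the first a MutS homolog needed for crossing over and the second the transverse filament protein of the synaptonemal complex. Msh5 ranged from 5.49 to 15.3 TPM in BALB/c tumors (median 9.59 TPM) and from 0.08 to 2.87 TPM in C57 tumors (median 1.86 TPM), with B16F10 at or below 0.19 TPM. The difference was 2.10 (SE 0.325, limma adjusted p = 0.0124), but for Msh5 the call was lost with a pseudocount of 0.1 in place of 1 (limma adjusted p = 0.0793), by the two-group test of the study (0.341), without genes that have near-identical copies (0.0507) and with copies summed (0.0503). Sycp1, whose annotated relative Sycp1-ps1 is 92.4% identical, ranged from 2.24 to 7.73 TPM in BALB/c tumors (median 5.73 TPM). It was listed at 0 in all 11 C57 tumors (difference 2.53, SE 0.257, limma adjusted p = 0.000413). No tumor of one background reached the values of the other for either gene.

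Among genes of the interferon response, Ifi202b was the 1 called gene of 14 tested in the p200 family, beside 0.582% over all tested genes. Ifi202b (chr1:173962568-173982744, minus strand), an interferon-inducible member of the p200 family that antagonizes the DNA sensor AIM2, ranged from 13 to 79.4 TPM in the BALB/c tumors (median 34.9 TPM). In the C57 tumors it was at 0 in 9 of 11 and at 0.06 and 0.3 TPM in the other two. The difference was 5.15 (SE 0.305, limma adjusted p = 5.19e-06), and it was called under each alternative tried. CT26 was the highest model, at 56.1 to 79.4 TPM, and BNL the lowest, at 13 to 21.8 TPM. The other 13 tested genes of the p200 family were not called. Ifi206, for example, averaged 0.419 TPM in BALB/c and 11.1 TPM in C57 models (difference -2.05, limma adjusted p = 0.315), and Ifi205 5.82 TPM and 32.1 TPM (difference -1.48, limma adjusted p = 0.475).

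Ifi44l (chr3:151758737-151762892, minus strand), an interferon-induced gene, ranged from 3.56 to 22.9 TPM in the BALB/c tumors (median 8.85 TPM) and was listed at 0 in all 11 C57 tumors. Its difference was 3.33 (SE 0.335, limma adjusted p = 0.000387), and no fold is given because the C57 tumors hold no value above 0. It was the 1 called gene among 40 tested interferon-stimulated genes, beside 0.582% over all tested genes, and their median difference was -0.15. Of 19 tested guanylate-binding and immunity-related GTPases, which act against intracellular pathogens, 17 were lower in the BALB/c models on average and none was called. Gbp2b went the other way (47.4 TPM in BALB/c, 6.67 TPM in C57 models, difference 3.08, limma adjusted p = 0.29). Its C57 tumors were at or below 0.17 TPM in B16F10 and LL2, at 3.02 and 4.13 TPM in MC38 and at 21 to 26.5 TPM in Hepa.

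The tripartite motif (Trim) genes, several of which restrict retroviruses, held 1 call in each direction among 17 tested members of their list, beside 0.416% higher in BALB/c and 0.165% higher in C57 over all tested genes. Of the 2 calls, that of Trim34b is uncertain, as given below. Trim12a (chr7:104299894-104315466, minus strand) was at 0 to 0.27 TPM in the BALB/c tumors (median 0 TPM) and at 2.46 to 35.7 TPM in the C57 tumors (median 7.47 TPM). Within the C57 models it was high in MC38 and Hepa, at 27.2 to 35.7 TPM, and lower in B16F10 and LL2, at 2.46 to 7.47 TPM. The difference was -3.68 (SE 0.548, limma adjusted p = 0.00905). The call was lost under 2 of 14 other settings of the processing or test, not counting those that leave out a single model or tumor, without BNL and Hepa (adjusted p = 0.0523) and by the two-group test of the study (0.456). In the same cluster of chromosome 7, Trim34b was at 1.44 to 5.48 TPM in BALB/c tumors and at 0 to 0.42 TPM in C57 tumors (difference 1.93, SE 0.256, limma adjusted p = 0.00361). Trim34b is 98.7% identical to Trim34a, and Trim34a made up 50.9% to 56.8% of the summed TPM of the pair in BALB/c models and 98.4% to 98.7% in C57 models. The sum of the pair did not pass (difference 0.08, exact permutation p = 0.924), so Trim34b taken alone is uncertain.

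**Figure D2:**
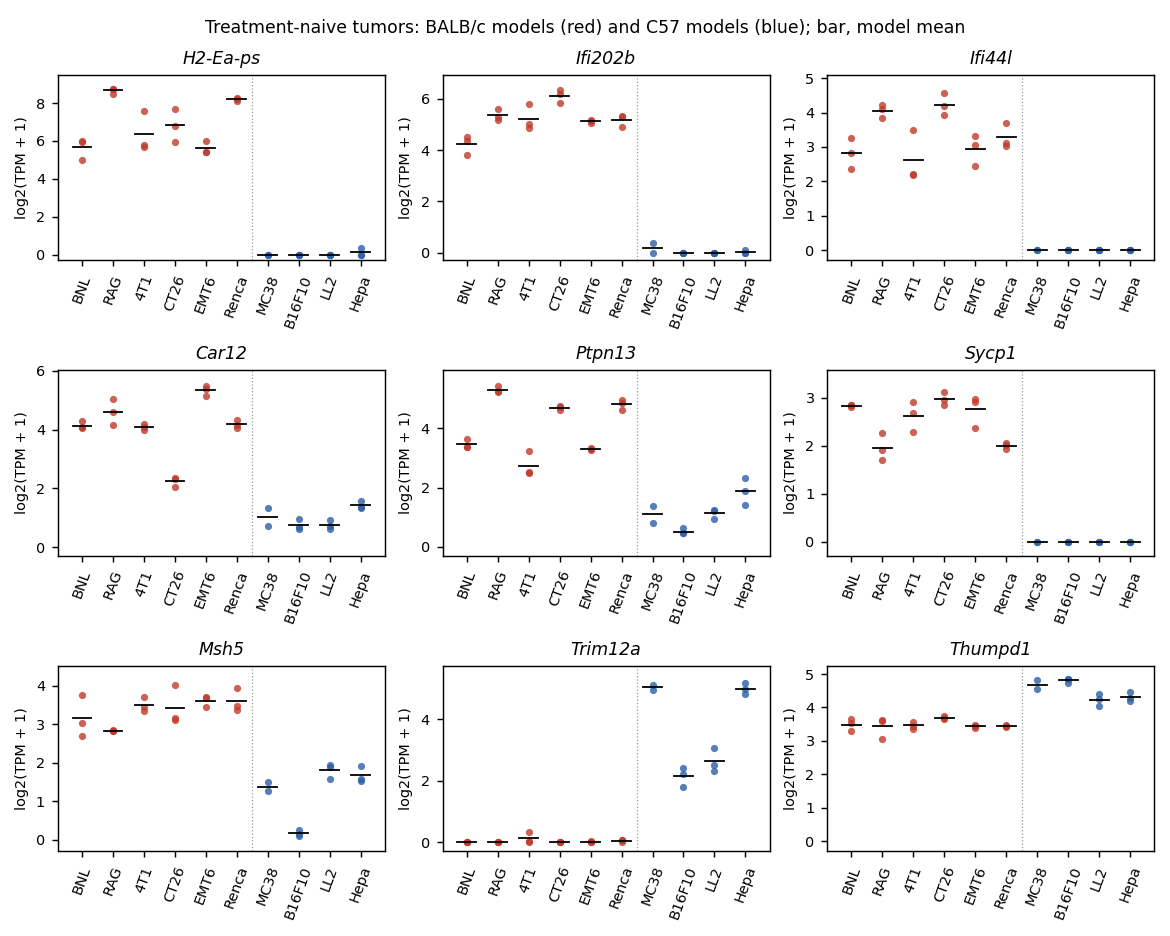
Values of 9 called genes without a near-identical copy in single treatment-naïve tumors (y axis, log2(TPM + 1)) by model (x axis), with a bar at the model mean. The 6 BALB/c models (red) lie above the 4 C57 models (blue) for 7 genes and below them for Trim12a and Thumpd1, with no overlap of tumors in any panel.

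Of the other protein-coding genes without a near-identical copy, Car12, Ptpn13 and Gm6899 were higher in the BALB/c models and Thumpd1 lower. Car12, Ptpn13 and Gm6899 were chosen after their values were seen. Car12, a membrane-bound carbonic anhydrase, ranged from 3.16 to 43.8 TPM in BALB/c tumors (median 16.8 TPM) and from 0.52 to 2 TPM in C57 tumors. The difference was 3.11 (SE 0.487, limma adjusted p = 0.0131), EMT6 was the highest model and CT26 the lowest of the BALB/c models, and the call was lost without MC38 (adjusted p = 0.0536) or B16F10 (adjusted p = 0.0511) and under 4 of 14 other settings (up to 0.0695). Ptpn13, a large protein tyrosine phosphatase, ranged from 4.57 to 41.5 TPM against 0.37 to 4.04 TPM (difference 2.89, SE 0.505, limma adjusted p = 0.0272). Its call was lost without CT26, Renca, MC38, B16F10 or LL2 (adjusted p up to 0.105), and under 6 of 14 other settings (up to 0.0995).

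Thumpd1 (chr7:119715093-119720798, minus strand), an adaptor for the acetylation of tRNA, had a small difference with a narrow spread. It ranged from 7.33 to 12.3 TPM in BALB/c tumors and from 15.4 to 28.1 TPM in C57 tumors (median 21 TPM), with a difference of -1.02 (SE 0.174, limma adjusted p = 0.024). The tumors did not overlap, but leaving out any one of BNL, RAG, 4T1, EMT6, Renca, MC38 or B16F10 ended the call (adjusted p up to 0.098), as did 7 of 14 other settings (up to 0.265), both rescalings among them. Gm6899 was low in both groups, at 0.75 to 3.34 TPM against 0 to 1.01 TPM (difference 1.19, limma adjusted p = 0.0333), and lost its call without any one of the 10 models (adjusted p up to 0.109) and under 6 of 13 other settings (up to 0.221).

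The RNA of ribonuclease P, the enzyme that trims the 5′ end of precursor tRNA, and a gene annotated as like it differed in opposite directions. Rprl3 (chr8:3803069-3803358, minus strand), annotated as an RNase P RNA-like gene, had the smallest p-value of all genes. It was at 126 to 292 TPM in the BALB/c tumors (median 232 TPM) and listed at 0 in all 11 C57 tumors (difference 7.74, SE 0.185, limma adjusted p = 4.07e-09). The 6 BALB/c models were close to each other in this RNA, with model means between 7.32 and 8.07 on the log2(TPM + 1) scale. Rpph1 (chr14:50807449-50807767, minus strand), the RNA subunit itself, was lower in the BALB/c tumors, at 1141 to 2121 TPM against 3103 to 9807 TPM (difference -1.72, SE 0.277, limma adjusted p = 0.0157). Rpph1 was chosen after its values were seen, and its call was lost without MC38 (adjusted p = 0.0536) and under 5 of 13 other settings (up to 0.352), rescaling over protein-coding genes among them. Pop4, a protein subunit of the enzyme, averaged 6.52 TPM in BALB/c and 16.3 TPM in C57 models (difference -1.21, limma adjusted p = 0.0567).

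Rprl3 is shown beside Rprl2 (chr3:22251374-22251663, plus strand), its closest annotated relative, because the sequences show how far Rprl3 is from being a near-identical copy. Capitals mark the 23 of 290 bases at which they differ (92.07% identity, GRCm38).
Rprl2: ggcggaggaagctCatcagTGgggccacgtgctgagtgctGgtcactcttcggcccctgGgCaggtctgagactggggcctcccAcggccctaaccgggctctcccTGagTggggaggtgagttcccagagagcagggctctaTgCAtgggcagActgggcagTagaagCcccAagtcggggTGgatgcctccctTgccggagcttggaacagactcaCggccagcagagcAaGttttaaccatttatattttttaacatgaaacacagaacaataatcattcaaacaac
Rprl3: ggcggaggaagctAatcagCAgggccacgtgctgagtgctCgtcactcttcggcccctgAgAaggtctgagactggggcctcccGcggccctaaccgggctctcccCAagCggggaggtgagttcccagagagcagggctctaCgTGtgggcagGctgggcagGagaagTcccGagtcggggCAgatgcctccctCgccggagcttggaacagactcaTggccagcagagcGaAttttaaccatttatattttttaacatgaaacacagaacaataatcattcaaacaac

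The larger part of the calls concerned genes with near-identical copies. The 74 genes belong to 52 families, of which 46 have a protein-coding gene as the member with the highest TPM, called the parent here. In 40 of the 46 a different member was called higher in the BALB/c models. In 35 of these 40 the parent was lower in the BALB/c models on average, and in 5 (Glo1, Tpm4, Lasp1, Rbpj and H2-Q1) it was higher. The parent itself was called in 6 of the 46. Reads of such genes can be split between members, so each member alone is uncertain, and the families are therefore described by the parent, by its copies and by their sum.

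Several of these families were of ribosomal protein genes. Rpl35a (chr16:33056453-33060189, plus strand), a protein of the large ribosomal subunit, was at 155 to 372 TPM in BALB/c tumors (median 226 TPM) and at 727 to 1330 TPM in C57 tumors (median 911 TPM). The difference was -2.01 (SE 0.235, limma adjusted p = 0.00124). The processed pseudogenes Rpl35a-ps2, Rpl35a-ps3, Rpl35a-ps4 and Rpl35a-ps6, on 4 chromosomes, are identical to each other in sequence and have identical values in every tumor. Each averaged 109 TPM ± 25.2 (SD, n = 6 models) in BALB/c and 5.93 TPM ± 0.89 (SD, n = 4 models) in C57 models (difference 3.70, SE 0.398, limma adjusted p = 0.000643). Their single tumors overlapped, since the lowest BALB/c tumor was at 0.9 TPM while the others of that background reached 236 TPM and the C57 tumors 8.59 TPM. Rpl35a made up 26.9% to 31.6% of the summed TPM of its family in BALB/c models and 95.5% to 96.5% in C57 models. The sum itself was 812 TPM ± 218 and 967 TPM ± 198 (SD), a difference of -0.27 (exact permutation p = 0.252, two-sided, n = 6 and 4 models).

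Rpl29 (chr9:106429454-106431568, plus strand), another protein of the large subunit, had the largest difference among the parents called higher in the C57 models. It was at 38.1 to 167 TPM in BALB/c tumors (median 82.8 TPM) and at 489 to 1100 TPM in C57 tumors (median 849 TPM), a difference of -3.15 (SE 0.317, limma adjusted p = 0.000387). Its pseudogene Gm8210 averaged 154 TPM in BALB/c and 1.78 TPM in C57 models (difference 5.75, limma adjusted p = 9.08e-06), and Gm13841, whose annotated sequence is identical to that of Gm8210, 188 TPM and 10.8 TPM (difference 3.65, adjusted p = 0.0124), with at least 1 BALB/c tumor listed at 0. Gm6344, which differs from Gm8210 by 2 bases, went the other way with 0.196 TPM and 11.7 TPM (difference -3.33, limma adjusted p = 1.65e-05). Here the sum also differed, at 450 TPM ± 165 and 866 TPM ± 189 (SD), by -0.99 (exact permutation p = 0.0143). The parent's share of the family was 19% to 23.2% in BALB/c and 95.6% to 96.3% in C57 models.

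The sequences of 4 parents and of 1 called copy of each show how little separates them. The lines below give 81 bases of the coding sequence of each parent and the matching stretch of the copy, 5′ to 3′ on the strand of the gene (GRCm38), and the capital is the base that differs. Positions are counted from 1 at the first base of the coding sequence, and the parent's base comes first in a substitution. Rpl35a and Rpl35a-ps2 (chr1:181241988-181242320, minus strand) differ at 1 of 333 bases (G156A). Rpl29 and Gm8210 (chr1:43189156-43189638, plus strand) differ at 3 of 483 bases (C72A, C300T and T423C), of which the first is shown. Rpl21 (chr5:146832890-146837032, plus strand) and Gm10240 (chr15:68309819-68310301, plus strand) differ at 2 of 483 bases (T336C and T432C). Rnps1 (chr17:24414565-24425901, plus strand) and Gm9825 (chr6:7982541-7983383, minus strand) differ at 5 of 843 aligned bases, the first of them C243A.
Rpl35a: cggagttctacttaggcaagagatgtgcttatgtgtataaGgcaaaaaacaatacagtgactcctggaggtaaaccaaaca
Rpl35a-ps2: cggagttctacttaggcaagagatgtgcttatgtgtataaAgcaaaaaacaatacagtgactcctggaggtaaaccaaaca
Rpl29: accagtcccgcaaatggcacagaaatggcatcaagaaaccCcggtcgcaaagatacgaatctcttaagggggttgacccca
Gm8210: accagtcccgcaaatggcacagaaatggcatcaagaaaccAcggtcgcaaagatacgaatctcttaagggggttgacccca
Rpl21: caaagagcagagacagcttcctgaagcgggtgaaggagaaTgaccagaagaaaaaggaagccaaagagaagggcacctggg
Gm10240: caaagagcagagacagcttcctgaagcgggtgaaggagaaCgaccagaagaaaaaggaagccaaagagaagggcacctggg
Rnps1: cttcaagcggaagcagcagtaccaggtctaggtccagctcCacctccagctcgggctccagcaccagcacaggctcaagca
Gm9825: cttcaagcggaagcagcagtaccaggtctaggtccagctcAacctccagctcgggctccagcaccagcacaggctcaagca

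For Rpl21 and Rpl30, proteins of the large subunit, the copies went from almost nothing to a large part of the family. Gm10240 and Gm13370, which are identical to each other, were each at 114 to 330 TPM in BALB/c tumors and at 0 to 2.86 TPM in C57 tumors (difference 7.25, SE 0.256, limma adjusted p = 5.59e-08). Rpl21 averaged 342 TPM and 690 TPM (difference -1.03, adjusted p = 0.178), and the sum of the family 746 TPM in both backgrounds (difference -0.02, exact permutation p = 0.933). Gm12191 was at 98.4 to 571 TPM in BALB/c tumors and at 0 to 6.85 TPM in C57 tumors (difference 7.38, SE 0.369, limma adjusted p = 1.25e-06). Rpl30 averaged 558 TPM and 954 TPM (difference -0.77, limma adjusted p = 0.45), and the sum 911 TPM and 974 TPM (difference -0.10, exact permutation p = 0.79). In both families the named copies did not overlap between backgrounds, and the sums did not pass the test.

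Rps2, Rps18 and Rplp0, proteins of the small subunit and the stalk of the ribosome, had the same layout. Rps2 averaged 513 TPM in BALB/c and 1900 TPM in C57 models (difference -1.96, SE 0.337, limma adjusted p = 0.0244), its copy Rps2-ps10 906 TPM and 19.1 TPM (difference 5.45, limma adjusted p = 3.85e-06), and the sum differed by -0.48 (exact permutation p = 0.186). The call of Rps2 was lost without 4T1, EMT6, Renca, MC38, B16F10 or LL2 (adjusted p up to 0.107), and under 4 of 13 other settings, summed copies among them (up to 0.646). Rps18 averaged 694 TPM and 1450 TPM (difference -1.12, limma adjusted p = 0.21), its copy Gm10260 603 TPM and 9.47 TPM (difference 5.88, limma adjusted p = 3.79e-06), and the sum differed by -0.24 (exact permutation p = 0.452). Rplp0 averaged 655 TPM and 1620 TPM (difference -1.41, limma adjusted p = 0.181), its copy Gm8730 605 TPM and 13.8 TPM (difference 5.24, limma adjusted p = 1.69e-05), and the sum differed by -0.39 (exact permutation p = 0.357). The parent made up 32.3% to 38.2%, 51.1% to 60.1% and 47% to 49.7% of these 3 families in BALB/c models, and at least 97.1% in C57 models.

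The layout was not limited to ribosomal proteins. Gapdh, the glycolytic enzyme often used as a reference transcript, averaged 996 TPM in BALB/c and 2030 TPM in C57 models (difference -1.03, limma adjusted p = 0.243), and its pseudogene Gm13394 (chr2:28933610-28934609, minus strand) 299 TPM and 0.683 TPM (difference 7.53, limma adjusted p = 5.59e-08). Among the other Gapdh copies, Gm7336 was higher in BALB/c (41.6 TPM against 13.8 TPM) and Gm12286 and Gm12070 were lower (1.41 TPM against 10 TPM, and 0.0228 TPM against 7.92 TPM). Hspa8, the constitutive Hsc70 chaperone, averaged 630 TPM and 1130 TPM (difference -0.83, limma adjusted p = 0.242), and Gm26825, which overlaps the pseudogene Gm15459 on chromosome 5, 194 TPM and 0.313 TPM (difference 7.32, limma adjusted p = 2.96e-08). Rnps1, a splicing and exon junction factor, averaged 42.9 TPM and 100 TPM (difference -1.18, limma adjusted p = 0.0419), and Gm9825 48.4 TPM and 1.67 TPM (difference 4.21, limma adjusted p = 1.03e-06). The call of Rnps1 was lost without any one of 8 of the 10 models (adjusted p up to 0.137), without 1 CT26 tumor (adjusted p = 0.0522), and under 7 of 13 other settings, summed copies and both rescalings among them (up to 0.834). The sums of these families differed by -0.63, -0.25 and -0.14 (exact permutation p = 0.0667, 0.271 and 0.543).

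A further 6 protein-coding copies named for their small p-values, Tpm3-rs7, Gm7879, Eno1b, Gm12666, AK157302 and Gm4737, belong to the same kind. Tpm3-rs7, a retrogene of the tropomyosin gene Tpm3, was at 55.7 to 128 TPM in BALB/c tumors and at 2.34 to 4.07 TPM in C57 tumors (difference 4.39, limma adjusted p = 1.58e-06), and the sum with Tpm3 differed by 0.03 (exact permutation p = 0.881). Eno1b, a retrogene of enolase 1, was at 56.3 to 297 TPM against 1.45 to 10.6 TPM (difference 4.55, limma adjusted p = 0.000218), and the sum with Eno1 differed by -0.59 (exact permutation p = 0.243). The other 4, copies of Ppih, Larp7, Isca1 and Ahcy, had differences of 2.93, 2.14, 1.82 and 2.32, and the sums of their families -0.26, -0.16, -0.25 and -0.40.

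Of the 52 sums, 11 had an unadjusted exact permutation p under 0.05, 7 of them among the 46 families with a protein-coding parent. Over these 46 families, the median difference was -0.64 for the parents and -0.24 for the sums, and the sum was nearer 0 than the parent in 40. The families were chosen because a member was called, and a p of a sum that its called member leads, as for Rpl29 and Gm11127, is not independent of that choice, so these counts are a description only. Glo1, which encodes glyoxalase 1, had a sum that differed (72.8 TPM ± 15.5 in BALB/c and 35.9 TPM ± 16.9 in C57 models, difference 1.08, exact permutation p = 0.00952), with a parent that was itself higher in BALB/c. The sums for Fgfr1op2 and Ublcp1 differed by -0.96 and -0.91 (exact permutation p = 0.00476 for both). Glo1, Fgfr1op2 and Ublcp1 were chosen after their values were seen, for their low p among the 52. When the copies of every gene were summed before the fit across all genes, 16 features were called, 13 higher in BALB/c and 3 higher in C57, and each of the 16 was also called singly. The sums for Glo1, Fgfr1op2, Ublcp1 and Rpl29 were not among the 16, and that for Gm11127 was.

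**Figure D3:**
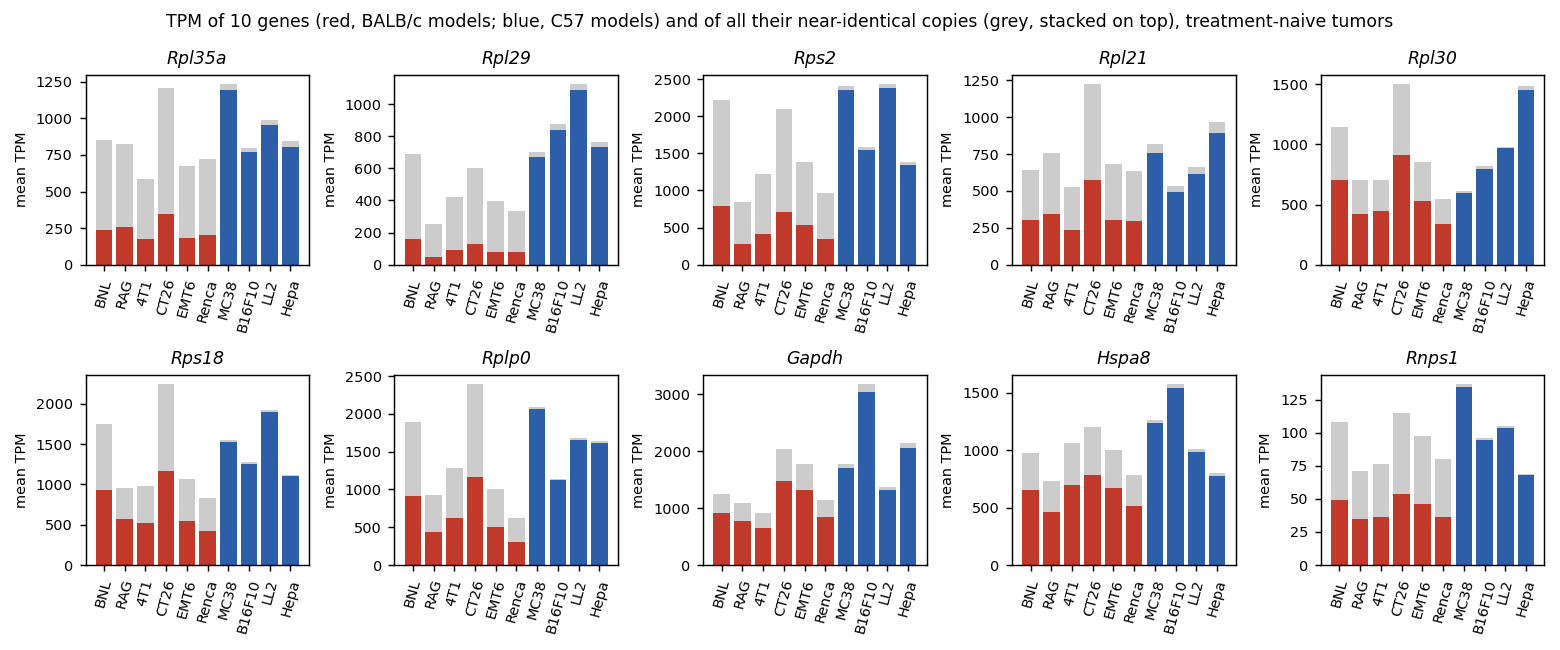
Mean TPM per model (y axis, linear) of 10 parent genes (red, BALB/c models; blue, C57 models) and of all their near-identical copies (grey, stacked on the parent) in treatment-naïve tumors. The grey part is large in each of the 6 BALB/c models and small in each of the 4 C57 models, where, for example, Rpl35a itself makes up 26.9% to 31.6% of its family in BALB/c and 95.5% to 96.5% in C57 models.

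Rpl26, of the large subunit, showed 1 model with the layout of the other background. Rpl26 was at 77.8 to 231 TPM in BALB/c tumors, at 990 to 1390 TPM in MC38, B16F10 and LL2 tumors, and at 239 to 330 TPM in the 3 Hepa tumors (difference -2.50, SE 0.436, limma adjusted p = 0.0272). Its pseudogene Gm15772 averaged 1341 TPM in Hepa and 8.89 to 11.3 TPM in the other C57 models, against 409 to 1013 TPM in the BALB/c models. Gm15772 thus held 82.2% of the family in Hepa, 78.2% to 82.7% in the BALB/c models and 0.697% to 0.931% in MC38, B16F10 and LL2. The sum of the family was 886 TPM ± 291 in BALB/c and 1342 TPM ± 195 (SD) in C57 models (difference -0.65, exact permutation p = 0.0476), and it was not called in the fit with copies summed. Without Hepa the difference of Rpl26 was -3.04 (adjusted p = 0.000321), and without any one of RAG, 4T1, EMT6, Renca, MC38, B16F10 or LL2 the call was lost (adjusted p up to 0.119), as under 4 of 12 other settings (up to 0.438).

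Small nuclear RNAs of the spliceosome gave the largest differences in the other direction. Gm22513 (chr12:54696782-54696945, plus strand), a copy of U1, the RNA that recognizes the 5′ splice site, was at 0 to 10.5 TPM in the BALB/c tumors (median 0 TPM) and at 1381 to 2262 TPM in the C57 tumors. The difference was -9.98 (SE 0.455, limma adjusted p = 7.13e-07). It differs from Gm26444 (chr12:54729602-54729765, plus strand) by 1 of 164 bases (T60C, counted from the first base), shown as the capital in the lines below because the levels of these copies differ so much. Gm26444 averaged 9.56 TPM in BALB/c and 9.14 TPM in C57 models.
Gm26444: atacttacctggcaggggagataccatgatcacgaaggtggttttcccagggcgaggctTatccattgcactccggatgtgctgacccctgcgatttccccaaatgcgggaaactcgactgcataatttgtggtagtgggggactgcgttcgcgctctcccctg
Gm22513: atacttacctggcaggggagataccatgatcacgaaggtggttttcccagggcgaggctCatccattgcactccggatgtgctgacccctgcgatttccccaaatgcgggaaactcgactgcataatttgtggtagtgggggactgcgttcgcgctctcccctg

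The U1 copies on chromosome 3 varied widely between models, and the sum over the U1 family was 1780 TPM ± 1430 in BALB/c and 3458 TPM ± 1080 (SD) in C57 models (difference -1.80, exact permutation p = 0.171). RAG and Renca had the lowest sums, at 255 and 89.4 TPM. Gm24305, another U1 copy on chromosome 12, averaged 2.4 TPM and 241 TPM (difference -5.34, limma adjusted p = 0.0153, 0.0562 without LL2 and 0.434 by the two-group test of the study). Gm22973, a copy of U2, the RNA that pairs with the branch point, averaged 1.75 TPM and 236 TPM (difference -6.57, SE 0.409, limma adjusted p = 7.5e-06), while the sum of its family differed by 0.18 (exact permutation p = 0.362). Single snRNA copies thus separated the backgrounds where the sums of their families did not pass the test.

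Some protein-coding paralogs were called as single genes while the sum of their family did not pass the test. Rnaset2b, a lysosomal ribonuclease, was at 4.38 to 44.2 TPM in BALB/c tumors (median 10.7 TPM) and at 27.1 to 103 TPM in C57 tumors (median 73.6 TPM), a difference of -2.40 (SE 0.357, limma adjusted p = 0.00905). The model means did not overlap, but 1 RAG tumor, at 44.2 TPM, lay above the LL2 tumors. The paralog Rnaset2a averaged 58.4 TPM and 25.7 TPM (difference 1.06, limma adjusted p = 0.397), and made up 75.1% to 84.7% of the pair in BALB/c models against 22.3% to 31.2% in C57 models. The sum of the pair differed by -0.44 (exact permutation p = 0.424). Gvin1, a very large interferon-inducible GTPase, was at 0 to 0.67 TPM in BALB/c tumors and at 3.14 to 98.6 TPM in C57 tumors (difference -3.86, SE 0.69, limma adjusted p = 0.0321). Hepa (60.3 to 98.6 TPM) and MC38 (29.4 and 35.7 TPM) were high, and B16F10 and LL2 were at 3.14 to 7.72 TPM. The sum of Gvin1 and its copies, with Gm4070 in the lead, differed by -0.06 (exact permutation p = 0.962), and the call of Gvin1 was lost without any one of 7 models (BNL, RAG, 4T1, CT26, EMT6, Renca or MC38, adjusted p up to 0.133) and under 5 of 12 other settings (up to 0.499).

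Cd300ld4, a paired immunoglobulin-like receptor of myeloid cells, was at 0 to 0.44 TPM in BALB/c tumors and at 0.62 to 11.8 TPM in C57 tumors (difference -2.23, limma adjusted p = 0.0186), and lost its call without RAG, 4T1, MC38, B16F10 or Hepa (adjusted p up to 0.0581) and under 3 of 11 other settings (up to 0.456). The sum of its family differed by 0.31 (exact permutation p = 0.386). Gm1966, an unprocessed pseudogene near Gvin1 and 92.9% identical to it, was chosen after its values were seen. This identity is under the limit for a copy, so Gm1966 was not part of the Gvin1 sum. It was at 0.02 to 0.17 TPM against 1.15 to 15.7 TPM (difference -2.49, limma adjusted p = 0.0291, up to 0.104 when 1 model was left out, and lost under 5 of 12 other settings). The unprocessed pseudogene 5830417I10Rik (chr3:88775216-88825587, plus strand) was at 1.19 to 2.86 TPM against 11.7 to 24 TPM (difference -2.66, SE 0.218, limma adjusted p = 7.16e-05). None of these 3 had tumors that overlapped between the backgrounds.

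The protein-coding genes next in line to be higher in the C57 models just missed the threshold. They were Rad23b, which hands damaged DNA to repair (69.3 TPM in BALB/c, 134 TPM in C57 models, difference -0.96, limma adjusted p = 0.0501), Ubash3b, a phosphatase that dampens lymphocyte receptor signaling (4.06 TPM and 10.1 TPM, difference -1.17, adjusted p = 0.0503), and Dusp2, a phosphatase of MAP kinases (4.02 TPM and 12.4 TPM, difference -1.44, adjusted p = 0.0508). On the other hand, 556 tested genes (3.17%) had model means that did not overlap, 192 higher in BALB/c (1.09%) and 364 higher in C57 (2.08%), so these far outnumber the calls. This split turned with the scaling, to 284 and 192 with upper-quartile rescaling and to 384 and 119 with rescaling over protein-coding genes, and no direction is read from it. Of the 556, 251 also did not overlap on day 8 in the same direction, when 2.61% of all tested genes did not overlap.

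Lists of immune and cell type genes were then examined as wholes. None of the 14 cell type lists and the list of host sex genes held a called gene. At 0.582% called over all tested genes, 0 calls in a list of this size is near the background and is not a result about its members, here and for the immune lists below. Of 19 tested T cell genes, 18 were lower in the BALB/c models on average (median difference -0.69), and the summed level of the list was 24.5 TPM (BNL) to 84.9 TPM (CT26) in BALB/c and 20.7 TPM (B16F10) to 314 TPM (Hepa) in C57 models. The C57 models thus spanned the whole range of the BALB/c models. Of 16 macrophage and monocyte genes 14 were higher in BALB/c on average (median 0.41, and 1.18 on day 8). Their summed level was 1070 TPM (BNL) to 3310 TPM (Renca) in BALB/c and 991 TPM (B16F10) to 4700 TPM (Hepa) in C57 models. Mrc1, the mannose receptor, averaged 83.1 TPM and 33.9 TPM (difference 1.44, limma adjusted p = 0.242). In bulk tumors, fewer cells of a type and less RNA per cell cannot be told apart.

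The other cell type medians were -0.40 for NK cells, -0.58 for B cells and plasma cells, 0.30 for neutrophils, -0.16 for dendritic cells, -0.29 for mast cells and eosinophils, 0.42 for endothelial cells, 0.52 for fibroblasts and pericytes, 0.58 for epithelial cells, 0.81 for skeletal muscle and fat and -0.36 for proliferation. They stand beside the median of -0.09 over all tested genes. Each of them kept its sign on day 8, with that of neutrophils at 0.883. The melanocyte median was -2.34 and the hepatocyte median -1.07, and how far 1 model sets each was not tested. Summed melanocyte genes were at 10800 TPM in B16F10 and summed hepatocyte genes at 5350 TPM in Hepa, while Alb, the main hepatocyte product, averaged 0.103 TPM over the BALB/c models and was at most 0.41 on the log2(TPM + 1) scale in any of them, the hepatocellular carcinoma BNL included. The Y-linked gene Eif2s3y was listed at 0 in every treatment-naïve tumor except those of Hepa (9.33 to 13.9 TPM).

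Among the immune lists, the Th1 and interferon gamma axis had a median of -0.56 and the guanylate-binding and immunity-related GTPases one of -0.87, and neither held a called gene. The same is true of the Ly6 family (0 of 9, median 0.17), the NK gene complex (0 of 10, -0.45), the NLR inflammasome and Naip genes (0 of 13, -0.04), the SLAM family (0 of 9, -0.15), immunoglobulin constant genes (0 of 6, -0.71), Fc and paired receptors (0 of 35, -0.01), complement (0 of 20, 0.24) and the Th2 axis (0 of 21, -0.07). Single genes known to vary between strains gave 0 calls of 28 (median -0.07). On day 8 the medians turned for Fc and paired receptors (0.257), the Th2 axis (0.0573), the SLAM family (0.24) and the NLR and Naip genes (0.09). The medians of the other lists named here kept their sign. In the Th2 list 1 of 19 tested genes was called on day 8, beside 0.583% over all tested genes. Klra4, an NK cell receptor of the Ly49 family, was listed at 0 in the BALB/c models and averaged 7.24 TPM in C57 models without passing the test (difference -1.76, limma adjusted p = 0.434). Slamf7 averaged 1.24 TPM and 13.3 TPM (difference -2.08, limma adjusted p = 0.242). For both, the model means did not overlap, and the C57 models differed widely among themselves.

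**Figure D4:**
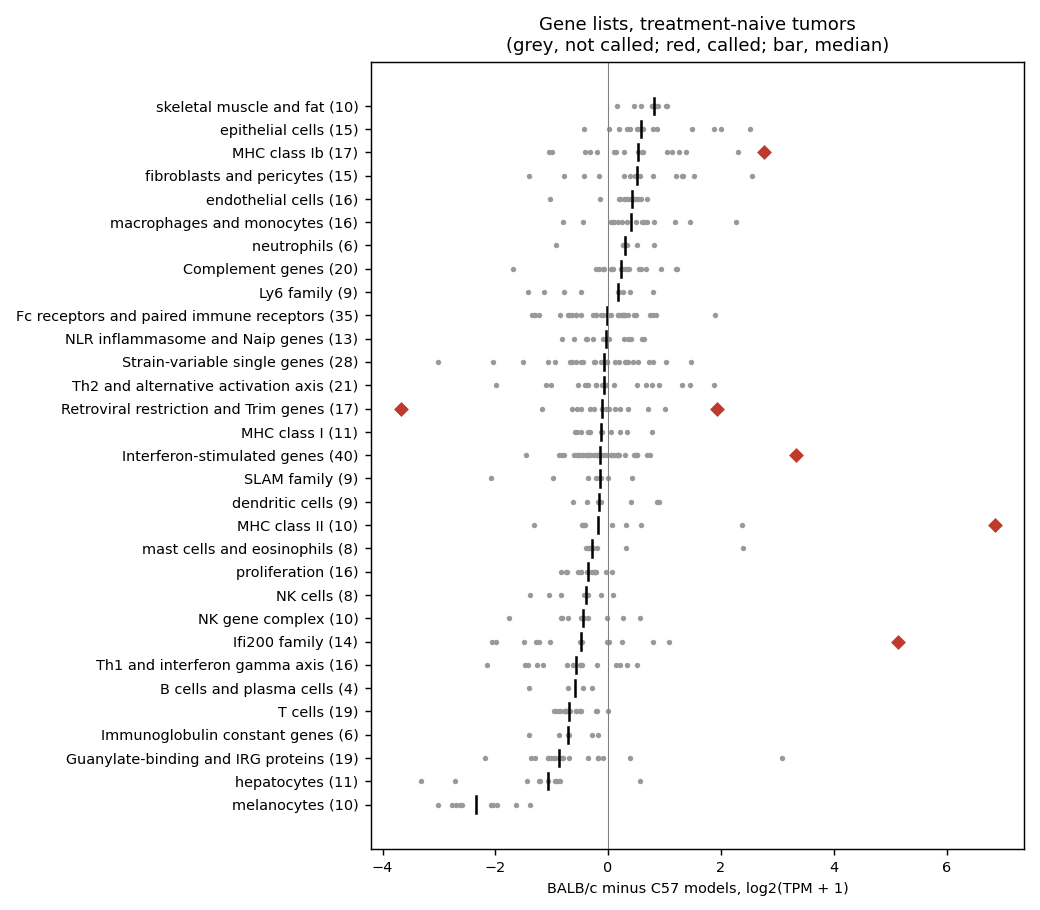
Differences between the backgrounds (x axis, BALB/c minus C57, log2(TPM + 1)) of the tested genes of 31 lists (y axis, with the number tested), ordered by their median (black bar). Red diamonds are the 6 called genes, H2-Ea-ps, Ifi202b, Ifi44l, H2-Q2, Trim34b and Trim12a, and grey points the genes that were not called.

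The day 8 NT tumors gave nearly the same calls in other tumors of the same lines. Of 17164 tested genes, 100 were called (0.583%), 72 higher in BALB/c (0.419%) and 28 higher in C57 (0.163%). Of the 102 genes called in treatment-naïve tumors, 100 were tested on day 8, all 100 had the same sign and 81 were called again, 63 higher in BALB/c and 18 higher in C57. These 81 were 79.4% of the first list and 81% of the second. H2-Ea-ps was at 15.6 to 668 TPM against 0 in every C57 tumor (difference 6.68, limma adjusted p = 4.7e-05), Ifi202b at 12.7 to 71.7 TPM against 0 to 0.37 TPM (5.16, adjusted p = 1.85e-05), and Car12 at 4.24 to 53.1 TPM against 0.24 to 1.2 TPM (3.52, adjusted p = 0.00508). Msh5 was not called on day 8 (difference 1.58, adjusted p = 0.145), nor were Rnaset2b (-2.06, adjusted p = 0.11), Cd300ld4 (-1.75, adjusted p = 0.173), Rpl26 (-2.44, adjusted p = 0.0589), Gvin1 (-3.31, adjusted p = 0.0616), Rnps1 (-0.97, adjusted p = 0.168), Gm1966 (-1.83, adjusted p = 0.09) and Gm6899 (0.73, adjusted p = 0.325). Both stages use the same 10 cell lines and host strains, so day 8 checks the tumors and not the choice of lines, and the Xist and Eif2s3y levels of the BNL tumors differed between the stages.

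**Figure D5:**
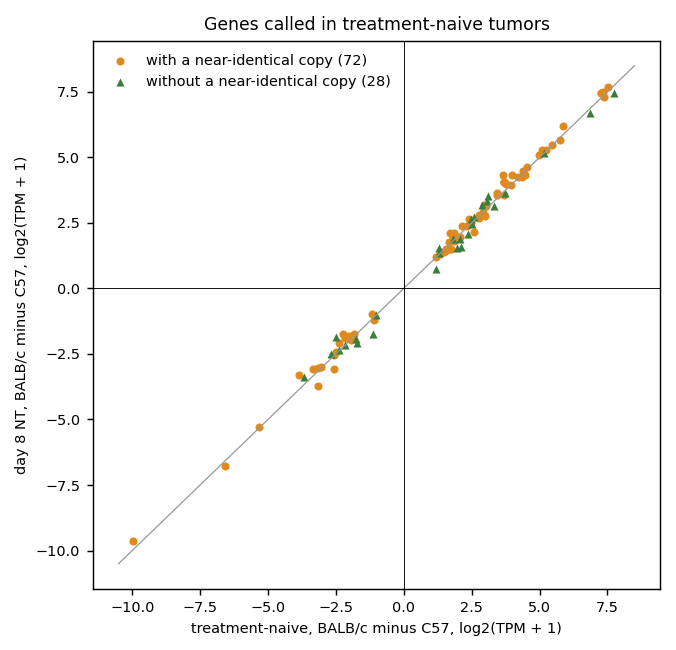
Difference between the backgrounds on day 8 (y axis, NT tumors, BALB/c minus C57, log2(TPM + 1)) against that in treatment-naïve tumors (x axis, same scale) for the 100 genes called in treatment-naïve tumors and tested on day 8, of which 72 have a near-identical copy (orange circles) and 28 do not (green triangles). All points lie in the lower left or upper right corner, close to the grey line of equal values.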

How the data were processed

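RNA was sequenced from treatment-naïve and day 8 NT tumors of 12 syngeneic models, of which 10 were compared here. Per the labels and the study's methods, rRNA-depleted libraries were read on 1 of 2 Illumina instruments (which one for which tumor is not given in the sources used here), reads were trimmed with Trimmomatic 0.36 and aligned with STAR 2.5.2b to GRCm38 (mm10), the C57BL/6J genome, and RSEM 1.2.31 gave gene values. The deposited values are TPM per gene and tumor, made by the authors. Every column sums to between 999999 and 1000001, so depth and counting error are unknown. How reads of BALB/c tissue map to a C57BL/6J genome was not tested as a cause of any difference.

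TPM of 29 treatment-naïve tumors was put on the log2(TPM + 1) scale and averaged per model, since tumors of 1 line are not independent samples of a background. Genes with a mean of at least 1 TPM over the models were fitted with limma 3.58.1 (R 4.3.3, mean-variance trend, two-sided), BALB/c against C57, with Benjamini-Hochberg adjustment over all tested genes and a threshold of 0.05. The 30 day 8 tumors were fitted in the same way. Nothing says that tumors of a model came from separate batches, so p-values measure the spread between models. Sums over gene families were tested with exact permutation over the 10 models (210 groupings, smallest two-sided p 0.00476). In simulated data of the same size, limma called 75% of genes given a log2 difference of 2 and 91% of those given 4, and 6 of 17335 unchanged genes.

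Near-identical copies were found with BLAST 2.17.0 among GENCODE M21 transcripts (at least 95% identity over at least 100 bases, 80% of the shorter and 20% of the longer transcript, at loci that do not overlap), a definition set after seeing the data. Of 50686 genes, 50462 had an M21 record, which gave types and coordinates. Sequences are from the same GRCm38 annotation. The sequences of 1 further pair are not reported here. The plots were made in matplotlib 3.10.9.

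Named were the 15 protein-coding genes with the smallest p and up to 5 others in each direction, the 10 with the largest differences called at both times in each direction, and list members that were called, did not overlap or had the largest differences (4 per strain or immune list, 3 per cell type list). Genes named outside this rule are said to be so where they appear, and parents and copies were named through a called family member. The members and lists were chosen with earlier results of these data known. Alternatives were another pseudocount, other minimum levels, upper-quartile and protein-coding rescaling, log2 of mean TPM, no trend, single tumors with model as a random block, a replicate block, the two-group test of the study, leaving out each model or tumor, and leaving out both models stated to have male hosts (BNL and Hepa). Fits without near-identical copies, on protein-coding genes and with copies summed were added after seeing the data. MBT2, KLN205 and drug-treated tumors were not used in the comparison.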

Additional observations from a re-analysis of the deposited data

Results flagged for a closer look

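Of 151 genes assessed, those of the naming rule and 6 added after their values were seen, 12 were such that the liver pair (BNL minus Hepa) and the colon pair (CT26 minus MC38) differed in opposite directions between backgrounds, with every tumor of a pair moving the same way. Genes outside the 151 were not assessed for this. None of the 12 was called over all models, and the difference between the pairs was not tested. On the log2(TPM + 1) scale the liver and colon differences were -1.64 and 2.51 for C1s2, 2.47 and -0.352 for Cdh1 (E-cadherin), -1.3 and 1.62 for Cma1 (a mast cell chymase), -1.25 and 4.7 for Gbp2b, -1.1 and 1.23 for Gsdmd (the pore former gasdermin D), and -1.18 and 3.01 for H2-DMb2. They were -2.14 and 4.02 for H2-Q1, -0.47 and 1.07 for H2-Q10, -1.61 and 0.752 for H2-Q5, -3.89 and 0.473 for Krt18 (a simple epithelial keratin), -2.48 and 2.29 for Mgl2 (a macrophage lectin) and 2.85 and -1.61 for Myh4 (a fast muscle myosin). For the 4 MHC genes among the 12, BNL was below Hepa and CT26 above MC38.

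Among the same 151 genes, in 33 cases 1 model stood apart from the others of its background, as a Dixon test at the 95% level picks out. Chance does this in about 1 in 20 groups, and groups with every model mean under 1 were not assessed. All values that follow are model means on the log2(TPM + 1) scale, with the range of the other models of that background. Among genes that were called, Renca was at 1.81 for 5830417I10Rik (others 1.26 to 1.46), 4T1 at 1.53 for AK157302 (2.03 to 2.3), CT26 at 8.03 for Eno1b (5.96 to 6.71) and at 3.69 for Thumpd1 (3.43 to 3.49), Hepa at 8.08 for Rpl26 (the others up to 10.3, with tumors at 990 to 1390 TPM), and LL2 at 3.88 for Gm10260 (2.93 to 3.06) and at 4.08 for Gm6344 (3.34 to 3.41). All 7 stayed on the side of their own background.

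CT26 was above the other BALB/c models in genes of cytotoxic cells, at 2.59 for Klrc1 (0.472 to 1.19), 3.22 for Klrd1 (1.21 to 1.85) and 3.85 for Prf1, perforin (0.52 to 1.25). It was also apart at 1.58 for Ly6i (0.245 to 0.636), 3.83 for Slurp1 (0.101 to 1.12), 3.99 for Trim30d (1.24 to 1.85) and 2.11 for Cyfip2 (1.41 to 1.55), and was low at 0.616 for the endothelial gene Vwf (1.88 to 2.16). Renca was apart at 4.64 for complement C2 (1.87 to 2.29), 4.29 for Pycard, the inflammasome adaptor (2.68 to 3.24), 2.78 for Raet1d (0.483 to 1.23) and 1.48 for Afp (0.0861 to 0.411). EMT6 was apart at 3.59 for Ifi213 (0.0994 to 1.27) and RAG at 1.05 for Ly6d (0.113 to 0.397).

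Hepa was apart in hepatocyte genes, at 11.2 for Alb (0.0189 to 0.0944) and 5.41 for Fgb (0 to 0.374), in genes of antibody-producing cells, at 3.27 for Iglc1 (listed at 0 in the others) and 4.1 for Jchain (0.0515 to 0.178), and at 4.39 for H2-Q1 (0 to 0.124), 2.75 for C1s2 (0 to 0.131) and 3.59 for Eif2s3y (listed at 0 in the others). B16F10 was apart in pigment genes, at 11.2 for Dct (0 to 0.0189), 10.7 for Pmel (0.137 to 1.05), 7.94 for Tyr (0 to 0.252) and 11.7 for Tyrp1 (0 to 0.338). LL2 was low at 3.02 for Dusp2 (3.83 to 3.99).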

How the results depend on the processing

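The 102 called genes kept their direction under each alternative in which they were tested. Under the alternatives set at the start, 59 (of the 62 with at least 5 TPM) to 101 were called again, with 1 model left out 74 to 91 and with 1 tumor left out 99 to 102. In the added fits 15 of 28 were called again without near-identical copies, 20 of 31 on protein-coding genes and 16 of 38 with copies summed. The counts of calls moved more. In treatment-naïve tumors the 73 calls higher in BALB/c became 44 with a minimum of 5 TPM, 139 with single tumors and model as a random block, 16 in the fit on protein-coding genes, 13 with near-identical copies summed and 12 without genes that have such copies. The 29 calls higher in C57 became 46 with no minimum, 15 with a minimum of 5 TPM, 166 with the random block, 15 by the two-group test of the study, and 4, 3 and 3 in the protein-coding, summed and no-copy fits. On day 8 the 72 and 28 calls became 46 and 16 with a minimum of 5 TPM and 134 and 109 with the random block, and the 28 became 14 by the two-group test. Fewer genes enter the stricter fits, and the random block counts single tumors; the cause of the other shifts was not tested.

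Tumors of different backgrounds share replicate numbers but only the number: over 66 same-numbered pairs the median correlation of deviations was 0.00712, and 0 pairs were over 0.1. Adding the replicate block to the random block gave 133 and 150 calls in treatment-naïve tumors and 114 and 69 on day 8.

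The 192 genes whose model means did not overlap with BALB/c higher became 316 with no minimum, 90 with a minimum of 5 TPM, 384 with protein-coding rescaling and 534 without BNL and Hepa. The 364 with C57 higher became 192 with upper-quartile rescaling, 119 with protein-coding rescaling and 929 without BNL and Hepa, where fewer models make an overlap less likely.

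With 1 model or tumor left out, calls ranged from 61 to 87 for BALB/c and from 19 (without MC38) to 41 (without Hepa) for C57, on day 8 from 62 to 84 and from 17 (without RAG) to 46 (without Hepa), and genes without overlap from 179 to 439 and from 322 to 755.

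Differences that changed sign were all of genes or sums that were not called. With copies summed H2-DMb1 was 0.0496. Without BNL and Hepa, Retnlg was 0.01155, Igkc 0.3795, H2-K1 0.04198, Xist 0.2693 and the sums for Rpl21 and Rpl30 0.1521 and 0.04681. With protein-coding rescaling Xist was 0.07702 and the sums were 0.03046 for Rps18, 0.0168 for Hspa8, 0.1242 for Rnps1, 0.2531 for Rpl21 and 0.1688 for Rpl30. With upper-quartile rescaling the sums were 0.006355 for Rnps1, 0.1347 for Rpl21 and 0.05049 for Rpl30. With 1 model or tumor left out the ranges were -0.08229 to 1.045 for Casp1, -1.085 to 0.1589 for H2-K1, -2.25 to 0.3287 for Igkc, -1.419 to 0.1542 for Ly6c2, -0.05118 to 1.606 for Mmp9, -0.8409 to 0.1015 for Pax5, -1.147 to 0.07852 for Psmb10, -1.471 to 0.02469 for Retnlg, -0.882 to 0.288 for Xist, and for the sums -0.3128 to 0.01256 for Rnps1, -0.1705 to 0.1203 for Rpl21 and -0.3033 to 0.1293 for Rpl30.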

Other observations

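The models left out of the comparison, MBT2 in C3H hosts and KLN205 in DBA/2 hosts, with 3 treatment-naïve tumors each, were set beside the 102 called genes. MBT2 was nearer the BALB/c mean for 68 of the 102 and KLN205 for 70, and of the 28 called genes without a near-identical copy for 17 and 19. Each is 1 cell line, and no test was made. H2-Ea-ps averaged 38.7 TPM in MBT2 and 57.7 TPM in KLN205, Ifi202b 61.2 and 62.6 TPM and Rprl3 160 and 315 TPM, all within or close to the BALB/c tumors. Trim12a, at 0.107 and 0.0267 TPM, and Gm22513, at 0 and 1.56 TPM, were also as low as in the BALB/c tumors. Of the other called MHC genes, Msh5 averaged 8.04 and 6.68 TPM, within the BALB/c tumors. By contrast, H2-Q2 averaged 0.637 and 0.633 TPM, Gm8909 0.293 and 0.94 TPM and Gm10499 0.783 and 1.53 TPM. These averages lay below every BALB/c tumor and above every C57 tumor.

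Other genes placed the left-out models apart from each other. Ifi44l averaged 16.6 TPM in MBT2 and was listed at 0 in KLN205. Car12 was at 0.227 and 7.78 TPM, Ptpn13 at 1.62 and 90 TPM and Thumpd1 at 19 and 8.79 TPM, so that MBT2 was on the C57 side in these genes. Gm11127 was at 0.343 TPM in MBT2, within the C57 tumors. In KLN205 it was at 5.28 TPM, above the C57 tumors (up to 0.82 TPM) and below the BALB/c tumors (from 11.1 TPM). Rpl35a averaged 1020 and 489 TPM and Rpl29 183 and 87.3 TPM.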
